A study of Mus musculus with 6 samples.

Results

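The region described here is the stretch of the mouse immunoglobulin heavy chain (Igh) locus between the D segments and the first V segments, together with every contact counted between it and the rest of the locus. It was defined on chromosome 12 of genome build mm9 as positions 114722112 to 114794187, a span of 72.1 kb. Of the 225 HindIII fragments assayed in Igh, 5 have their midpoint in this span, and of the 12656 possible Igh primer pairs, 557 have at least 1 end there. The rule used positions only and no measured value. Moving from the D segments towards the V segments, the fragments are REV 94 (positions 114722112 to 114723013, 902 bp), FOR 103 (114747437 to 114750051, 2615 bp), REV 106 (114751970 to 114755042, 3073 bp), FOR 115 (114778143 to 114787052, 8910 bp) and FOR 117 (114791568 to 114794187, 2620 bp). FOR and REV give the primer type. A product forms only between a forward and a reverse primer, so the 2 reverse and 3 forward fragments have different partners. REV 94 is the fragment assigned to IGCR1. Its CTCF binding was not measured here, and no mm9 annotation was used to place the CTCF sites within it.

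Igh V, D and J segments are joined by the RAG recombinase in developing B cells, D to J first and V to DJ second. IGCR1, the intergenic control region 1, lies between the V and D segments and holds sites for CTCF, the zinc finger protein that anchors chromatin loops together with cohesin. It is known for restraining the access of the recombination center at the J segments to the proximal V segments. In the RefSeq gene order of build GRCm38, used for names only, Adam6a, a testis-expressed member of the ADAM family, lies between the last D segment and the first V segment, Ighv5-1, while its relative Adam6b lies among the last D segments. Joining a V segment to DJ deletes all DNA between them, which includes the V-D region. The intronic enhancer beside the J segments and the 3′ regulatory region (3′RR) beyond the constant genes are the main enhancers of the locus.

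The counts came from 5C, chromosome conformation capture carbon copy, which anneals primers to ligated fragment ends and counts the sequenced products of each primer pair. The study compared 3 groups of 2 libraries. The MEF libraries are from murine embryonic fibroblasts, taken straight from culture. The pro-B libraries are from Rag2-deficient bone marrow, expanded for 4 days in IL7, so their Igh alleles cannot be rearranged by RAG. The resting B libraries are from CD43- splenic cells isolated on magnetic beads without culture, and mature B cells carry rearranged Igh alleles. The strain, age and sex of the mice are not given in the sources used here, and cell type, tissue and culture cannot be told apart. A fragment deleted from some alleles and a fragment that makes fewer contacts per allele both give fewer reads, and these counts cannot tell them apart. Partners were grouped into 10 regions by position. The 3′ flank, 3′RR, constant region and D-J region lie on the lower-coordinate side, called the constant side. The V regions (proximal, middle, near distal, far distal) and the 5′ flank lie on the higher-coordinate side, called the V side, and the V-D region itself is the tenth.

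Libraries held 20580457 to 24191175 valid read pairs. The V-D pairs took 0.677% to 1.16% of the Igh reads, or 139484 to 245285 reads. Between 8 and 73 of the 557 pairs had 0 reads, the 73 being in pro-B replicate 2, and by counting error alone a pair at 0 could stand for up to 3 reads. The replicates of the V-D pairs were less alike for pro-B cells, with a correlation of the log counts across primer pairs of 0.618, than for MEF (0.888) and resting B cells (0.873). Primer pairs are not independent replicates. FOR 115 with REV 70 (positions 114647312 to 114649351 in the constant region, 134 kb away) took a large share of the reads: 25415 and 48470 for MEF, 2146 and 29619 for pro-B, 67298 and 66759 for resting B. Sums with the constant region and the side ratios of FOR 115 are given with and without it. Levels below are CPM, reads per 1e+06 cis reads after scaling by the trimmed mean of M-values (TMM), and folds are on the log2 scale with their standard error (SE). Values are given as replicate 1 and replicate 2. Unless another test is named, tests are edgeR's quasi-likelihood test with Benjamini-Hochberg adjustment over every Igh feature of the same kind, and "called" means an adjusted p under 0.05. The p-values measure the spread between these libraries, which the series description calls biological replicates.

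Most V-D pairs had fewer reads in resting B cells than in the other cell types. Of the 522 V-D pairs with enough reads to test, 382 had a fold below 0 in resting B over MEF and 325 in resting B over pro-B. The median log2 folds were -0.83 and -0.63, while the medians over all 11940 tested Igh pairs were -0.02 and 0.01. For pro-B over MEF the V-D median was -0.12 and that of all Igh pairs 0.03. No V-D pair was called for pro-B over MEF, where the background over all Igh pairs was also 0% in either direction. By edgeR 36 of the 522 V-D pairs were under 0.05 before adjustment, against 1094 of all 11940 Igh pairs, a larger share. DESeq2 called 6 V-D pairs, and its share over all Igh pairs is not given here. For resting B over MEF, 0 V-D pairs rose and 2 fell, against backgrounds of 0.369% and 0.385% of the Igh pairs. For resting B over pro-B, 5 rose and 27 fell, against backgrounds of 2.74% and 5.16%. In either direction 0.383% of the V-D pairs were called over MEF and 6.13% over pro-B. Over all Igh pairs these shares were 0.754% and 7.9%, so V-D pairs were not called more often than the rest of the locus. Of the 27 that fell, 18 held REV 94 and 8 held FOR 117, REV 106 had none, and FOR 103 and FOR 115 had 1 each. FOR 117 with REV 94 counts under both fragments. The counts that follow, from fits with 1 library left out, have no share of all Igh pairs beside them. Without any single MEF or resting B library 0 V-D pairs were called in either comparison with resting B cells, whereas without a pro-B library 123 or 127 were called over MEF and 141 or 248 over pro-B.

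The choice of scaling moved all folds together. As differences of mean log2 CPM, the median over all Igh pairs in resting B over pro-B was 0.32 with TMM, 0.61 with total cis reads and 0.67 with gene desert reads as the library size, and the V-D median was -0.43, -0.14 and -0.08. In resting B over MEF the medians were -0.01, 0.26 and 0.51 over all pairs and -0.86, -0.59 and -0.34 for V-D pairs. The gap between V-D pairs and all pairs stayed the same by arithmetic, since a scaling shifts every such difference of a comparison alike. It is therefore no test of the scaling. The split of called pairs in resting B over pro-B was 5 higher and 27 lower with TMM (15.6% higher), 6 and 12 with total cis reads (33.3% higher), and 8 and 12 with gene desert reads (40% higher). No called sum or pair of the V-D region changed sign under these scalings.

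Summed over each partner region, the V-D contacts of resting B cells were lower with the far distal V, D-J and V-D regions, and higher with the 3′ flank or the constant region, depending on the comparison. The D-J falls rested on 1 primer pair, given below. None of the 10 sums was called for pro-B over MEF, where 9.09% of the 55 region pairs were called higher and 0% lower. For resting B over MEF, 1 rose and 3 fell (background 32.7% higher and 16.4% lower). For resting B over pro-B, 1 rose and 2 fell (background 20% and 21.8%). Out of 10 sums, only the 3 falls over MEF were above the background share. With total cis reads as the library size these counts became 0 over MEF and 1 over pro-B, and with gene desert reads they were 0 in both.

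The V-D sum with the far distal V region was 369 and 331 CPM for MEF, 295 and 386 for pro-B, and 167 and 178 for resting B. Both resting B libraries lay below the other 4, which overlapped each other. The fold was -1.02 ± 0.30 over MEF (adjusted p 0.0233) and -0.98 ± 0.30 over pro-B (adjusted p 0.0306), and the adjusted p ranged up to 0.264 and 0.271 with 1 library left out. Folds with the other V regions were below 0 without passing the test. Over MEF and over pro-B they were -0.49 and -0.64 for the proximal, -0.64 and -0.74 for the middle and -0.55 and -0.68 for the near distal V region, with adjusted p values of 0.056 to 0.126.

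With the 3′ flank the V-D sum was 97.5 and 127 CPM for MEF, 194 and 266 for pro-B, and 274 and 289 for resting B. All B-lineage libraries lay above both MEF libraries. The rise was called for resting B over MEF (1.33 ± 0.32, adjusted p 0.0105, up to 0.140 with 1 library left out) and missed the threshold for pro-B over MEF (1.04 ± 0.32, adjusted p 0.0672). The sum with the 3′RR was 229 and 328 CPM for MEF, 613 and 487 for pro-B, and 407 and 408 for resting B. Here the pro-B libraries were the highest, 0.98 ± 0.31 above MEF (adjusted p 0.0672), again short of the threshold. The sum with the 5′ flank was 140 and 130 CPM for MEF, 79.0 and 145 for pro-B, and 175 and 188 for resting B, with no call.

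Single primer pairs set the sums with the constant and D-J regions. With the constant region the sum was 2597 and 2953 CPM for MEF, 1189 and 1992 for pro-B, and 4090 and 4289 for resting B, and the 3 cell types did not overlap. The rise in resting B over pro-B (1.40 ± 0.29, adjusted p 0.00873) became 0.45 without FOR 115 with REV 70 and 0.66 with each primer pair counted once, and neither was called. With the D-J region the sum was 2064 and 1324 CPM for MEF, 1531 and 1408 for pro-B, and 680 and 766 for resting B. It fell in resting B over MEF by 1.23 ± 0.29 on the log2 scale (adjusted p 0.00941) and over pro-B by 1.02 ± 0.29 (adjusted p 0.0275). Without FOR 103 with REV 85, the folds were -0.22 and 0.05, neither called. FOR 103 with REV 85 (positions 114672759 to 114675715, within the D-J region, 74.5 kb away) had 25393 and 20362 reads for MEF, 18138 and 22227 for pro-B, and 5510 and 4705 for resting B. That pair alone fell in resting B over pro-B (-2.14 ± 0.45, adjusted p 0.0364), and over MEF it had -2.31 ± 0.45 (adjusted p 0.0597). FOR 115 with REV 70, named for its read count, was not called in any comparison.

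The 50 sums of 1 V-D fragment with 1 region separated the 5 fragments. In pro-B over MEF, 2 rose and 0 fell (background 1.38% and 0.0446% of 2240 fragment by region sums), and both involved REV 94. In resting B over MEF, 3 rose and 13 fell (background 19.2% and 12.6%). In resting B over pro-B, 3 rose and 14 fell (background 18.2% and 17.8%), and 12 of those 14 involved REV 94 or FOR 117. The pro-B over MEF calls were 0 without any single MEF or resting B library and 14 or 13 without a pro-B library. Over MEF, resting B had 0 calls without either resting B library or MEF replicate 1, 9 without MEF replicate 2, and 28 or 29 without a pro-B library. Over pro-B it had 3 without resting B replicate 1, 0 without replicate 2, and 15 to 25 without any other library. With gene desert reads as the library size, 0, 3 and 6 sums were called in the 3 comparisons. Shares over all fragment by region sums in these refits are not given, so their counts have no background here.

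**Figure D1:**
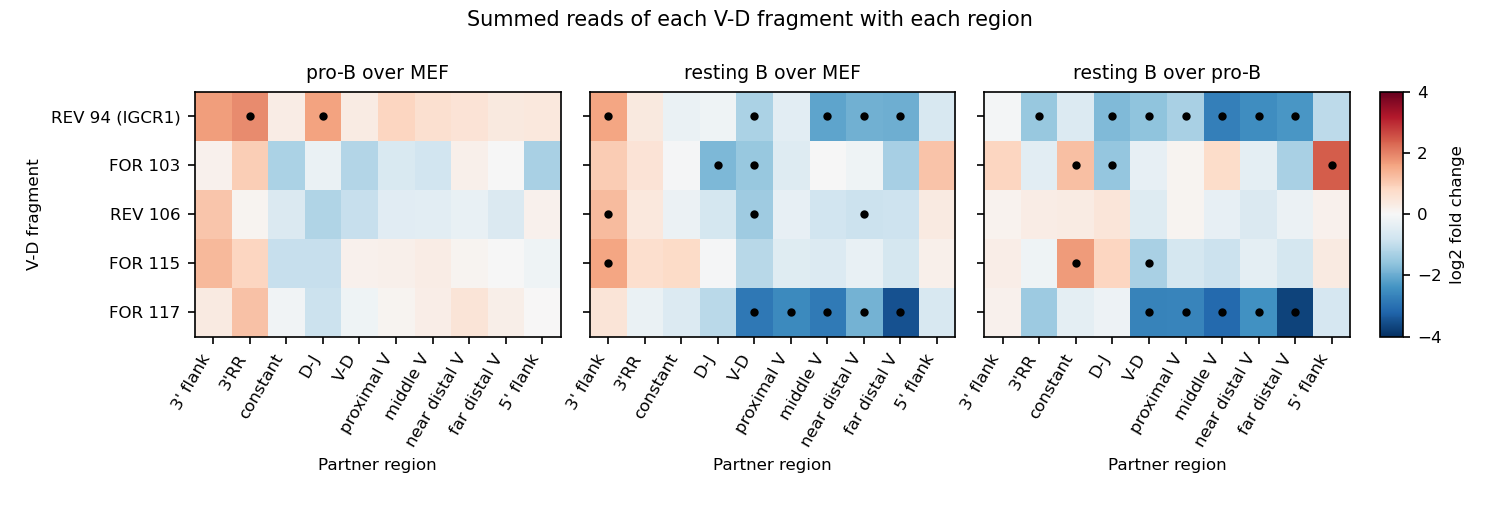
Log2 fold of the summed reads of each V-D fragment (rows) with each of 10 partner regions (columns, ordered from the constant side to the V side) in 3 comparisons; blue is lower, red is higher, and a black dot marks an adjusted p under 0.05. The row of REV 94 runs from 0.29 to 1.89 in pro-B over MEF and from -2.75 to -0.09 in resting B over pro-B, where the value nearest 0, that of the 3′ flank, is smaller than the shift between scalings, and FOR 117 has 5 called falls in each comparison with resting B cells.

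The IGCR1 fragment, REV 94, had more contacts with the D-J region and with the 3′RR in pro-B cells than in MEF. With the 7 forward fragments of the D-J region it had 92.8 and 68.8 CPM for MEF, 232 and 260 for pro-B, and 69.4 and 74 for resting B. Both pro-B libraries stood above the other 4, which overlapped. It rose by 1.61 ± 0.27 in pro-B over MEF (adjusted p 0.0435) and fell by 1.78 ± 0.27 in resting B over pro-B (adjusted p 0.00506), while resting B over MEF was -0.17 ± 0.27 (adjusted p 0.628). With the 4 forward fragments of the 3′RR it had 27.0 and 40.2 CPM for MEF, 107 and 142 for pro-B, and 47.3 and 40.7 for resting B. The pro-B libraries were again the highest. The fold in pro-B over MEF was 1.89 ± 0.32 (adjusted p 0.0443), in resting B over pro-B -1.50 ± 0.32 (adjusted p 0.0126), and in resting B over MEF 0.39 ± 0.31 (adjusted p 0.359). The direction of the 3′RR rise was not particular to REV 94. The median pro-B over MEF fold of its tested 3′RR pairs was 2.21. It was 1.19 for FOR 117, 0.63 for FOR 115, 0.51 for REV 106 and -0.32 for FOR 103. As a share of its own Igh reads, each of these fragments had more 3′RR reads in both pro-B libraries than in both MEF libraries.

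Both rises over MEF lay close to the threshold. With 1 library left out they stayed between 1.35 and 1.83 for D-J and between 1.63 and 2.15 for the 3′RR, but they were called only where the library left out was a pro-B one, with adjusted p values up to 0.369 and 0.402 otherwise. Neither was called with only the pro-B and MEF libraries in the fit (adjusted p 0.174 for both), with each primer pair counted once (0.158 and 0.161), with total cis reads (0.148 and 0.0968) or with gene desert reads (0.288 and 0.243) as the library size.

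All 7 primer pairs of REV 94 with the D-J region had both pro-B libraries above both MEF libraries, and so did all 4 with the 3′RR, where 19.3% of all Igh pairs did. None of the 11 was called on its own. Counting them, 43 of the 106 tested pairs of REV 94 (40.6%) had both pro-B libraries above both MEF libraries. On the constant side 20 of its 31 tested pairs did (64.5%). The pair nearest the threshold was FOR 84 with REV 94 (positions 114670120 to 114672758, 51.1 kb apart), with 555 and 483 reads for MEF, 1627 and 2799 for pro-B, and 168 and 123 for resting B. Its fold was 2.08 ± 0.46 in pro-B over MEF (adjusted p 0.359), and it fell by 4.05 ± 0.50 in resting B over pro-B (adjusted p 0.0195).

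The pairs of REV 94 divided by position within the D-J region. Nearest the V-D region, FOR 84, FOR 86 and FOR 91 all fell in resting B over pro-B (-4.05, -3.81 and -2.42, adjusted p 0.0195 to 0.0356). Their folds over MEF were -1.97, -2.63 and -1.79 (adjusted p 0.0828 to 0.107). Farthest from it, FOR 76 and FOR 78 were at 1.81 ± 0.71 and 1.48 ± 0.45 in resting B over MEF (adjusted p 0.209 and 0.135) and at -0.24 and -0.22 in resting B over pro-B. FOR 78 with REV 94, for example, had 176 and 339 reads for MEF, 492 and 1064 for pro-B, and 769 and 667 for resting B, and its resting B reads lay between those of the pro-B libraries. REV 106 had a similar division over MEF, without a call. With FOR 84, FOR 86 and FOR 91 it had -1.24, -1.79 and -1.63, and with FOR 76 and FOR 78 -0.15 and -0.21. Over pro-B its folds with FOR 84, FOR 86 and FOR 91 were -0.12, 1.63 and -0.63. The intronic enhancer fragment, REV 81 (positions 114664824 to 114667095), has a reverse primer and cannot pair with REV 94. On either side of it, FOR 80 with REV 94 had 104 and 124 reads for MEF, 640 and 320 for pro-B, and 175 and 202 for resting B, and FOR 82 with REV 94 had 165 and 255, 425 and 391, and 188 and 242 reads. Both were above MEF in both pro-B libraries, by 2.24 ± 0.66 and 1.11 ± 0.53, without being called (adjusted p 0.430 and 0.577).

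In the 3′RR, FOR 28 with REV 94 (253 kb apart) had 245 and 535 reads for MEF, 1043 and 1171 for pro-B, and 399 and 258 for resting B, and fell in resting B over pro-B by 1.93 ± 0.45 (adjusted p 0.0465). At the 3′ end of the 3′RR the counts were small and none was called. FOR 23 with REV 94 had 16 and 49, 208 and 67, and 9 and 2 reads, and FOR 25 with REV 94 had 5 and 39, 56 and 163, and 18 and 5 reads, in the same order of cell types.

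**Figure D2:**
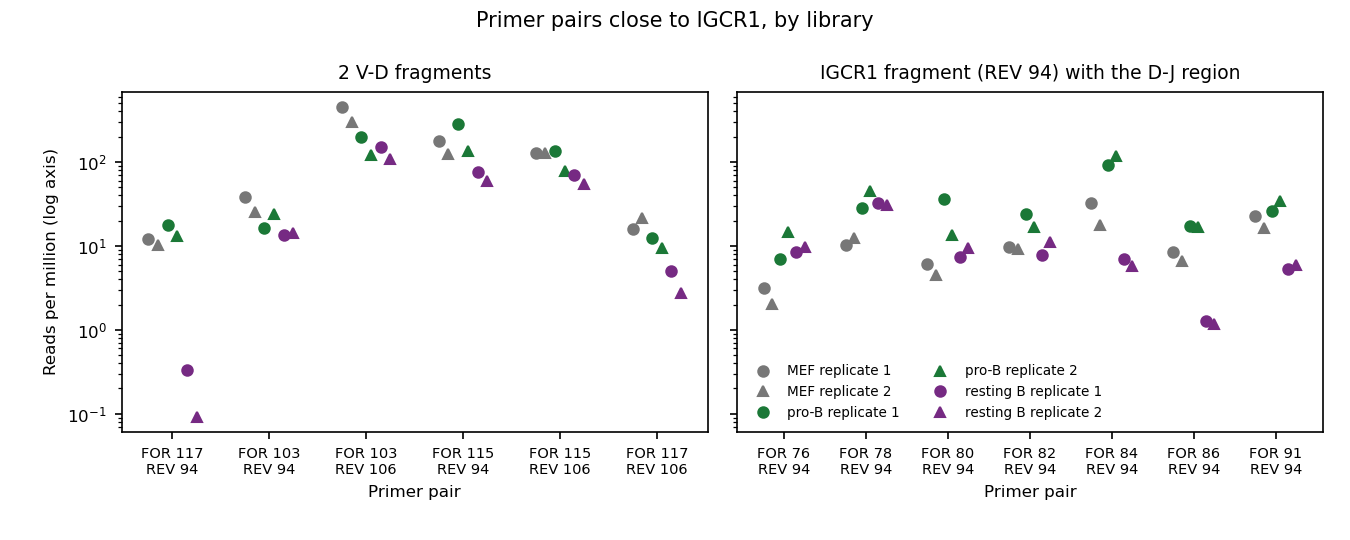
CPM (log axis) of the 6 primer pairs that join 2 V-D fragments and of the 7 pairs of REV 94 with the D-J region, ordered from the constant side; colour gives the cell type and the marker the replicate. In the D-J panel both pro-B points lie above both MEF points for all 7 pairs, and the resting B points are lowest at FOR 84, FOR 86 and FOR 91; in the other panel the 2 resting B points of FOR 117 with REV 94, at 0.335 and 0.0926, are the lowest values.

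REV 94 had fewer reads with the V segments in resting B cells than in either other cell type. With the middle V region it had 116 and 92.5 CPM for MEF, 163 and 160 for pro-B, and 22.3 and 25.7 for resting B. Resting B cells fell below the other types with no overlap, by 2.12 ± 0.27 from MEF (adjusted p 0.00475) and by 2.75 ± 0.27 from pro-B (adjusted p 0.00275). The near distal V region had 75.1 and 57.0, 108 and 86.4, and 16.3 and 18.6 CPM in the same order, with folds of -1.92 ± 0.30 and -2.48 ± 0.31 (adjusted p 0.00619 and 0.00332). The far distal V region had 66.5 and 60.7, 74.6 and 90.7, and 16.7 and 16.4 CPM, with folds of -1.94 ± 0.28 and -2.32 ± 0.28 (adjusted p 0.0053 and 0.00323). In these 3 regions every resting B value was below every value of the other types.

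With 1 library left out, the folds of these 3 regions stayed between -2.27 and -1.72 over MEF and between -2.85 and -2.18 over pro-B. The calls ended without a resting B library and, over MEF, without MEF replicate 1 (highest adjusted p 0.0723). The exception was the middle V region over pro-B, still called without 1 of the 2 resting B libraries. With gene desert reads as the library size the folds were between -1.61 and -1.41 over MEF and between -2.49 and -2.11 over pro-B, and of these 6 only that of the middle V region over pro-B was called (adjusted p 0.0231).

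As a sum, the proximal V region gave REV 94 another pattern. It had 339 and 277 CPM for MEF, 535 and 593 for pro-B, and 239 and 221 for resting B, so that it fell from pro-B cells (-1.29 ± 0.27, adjusted p 0.0125) while the fold over MEF was -0.42 ± 0.27 (adjusted p 0.26). Most of these proximal reads came from 1 pair, FOR 126 with REV 94 (104 kb apart), the leading partner of REV 94 in all 6 libraries, with 3415 and 4300 reads for MEF, 5628 and 9698 for pro-B, and 3348 and 2958 for resting B. With each of the 9 proximal pairs counted once the fold over pro-B was -2.55.

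Across single pairs, 62 of the 72 tested pairs of REV 94 with the V side had both resting B libraries below both MEF libraries, with a median of -2.18. Against pro-B, 50 of 72 did, with a median of -2.79. Over all Igh pairs the shares that did not overlap in that direction were 36% and 29%. On the constant side 9 and 16 of 31 pairs did, with medians of 0.44 and -0.68. FOR 556 with REV 94 (1664 kb apart, near distal V) had 156 and 196 reads for MEF, 338 and 110 for pro-B, and 2 and 1 for resting B (a fold of -7.39 ± 1.16 over pro-B, adjusted p 0.0241). FOR 769 with REV 94, 2383 kb apart in the far distal V region, had 26 and 32, 46 and 77, and 1 and 0 reads (-6.75 ± 1.48, adjusted p 0.0413). Of the 18 pairs of REV 94 that fell, 12 joined it to V segments between 253 and 2383 kb away, 3 to the D-J region, 1 to the 3′RR, 1 to the constant region and 1 to FOR 117. The constant region pair was FOR 49 with REV 94 (153 kb), with 389 and 830 reads for MEF, 1028 and 580 for pro-B, and 58 and 57 for resting B (-4.04 ± 0.61, adjusted p 0.022).

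With the 3′ flank REV 94 moved the other way. It had 14.1 and 13 CPM for MEF, 29.6 and 56.2 for pro-B, and 39.2 and 41.4 for resting B, a rise of 1.57 ± 0.40 in resting B over MEF (adjusted p 0.0258, up to 0.171 with 1 library left out). REV 106 (1.25 ± 0.37, adjusted p 0.0389) and FOR 115 (1.58 ± 0.28, adjusted p 0.00898) rose with the 3′ flank too. With the constant region REV 94 had 138 and 136, 182 and 152, and 117 and 110 CPM for MEF, pro-B and resting B, and with the 5′ flank 9.41 and 10.3, 6.73 and 19.6, and 6.71 and 6.02 CPM. Neither was called in any comparison.

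**Figure D3:**
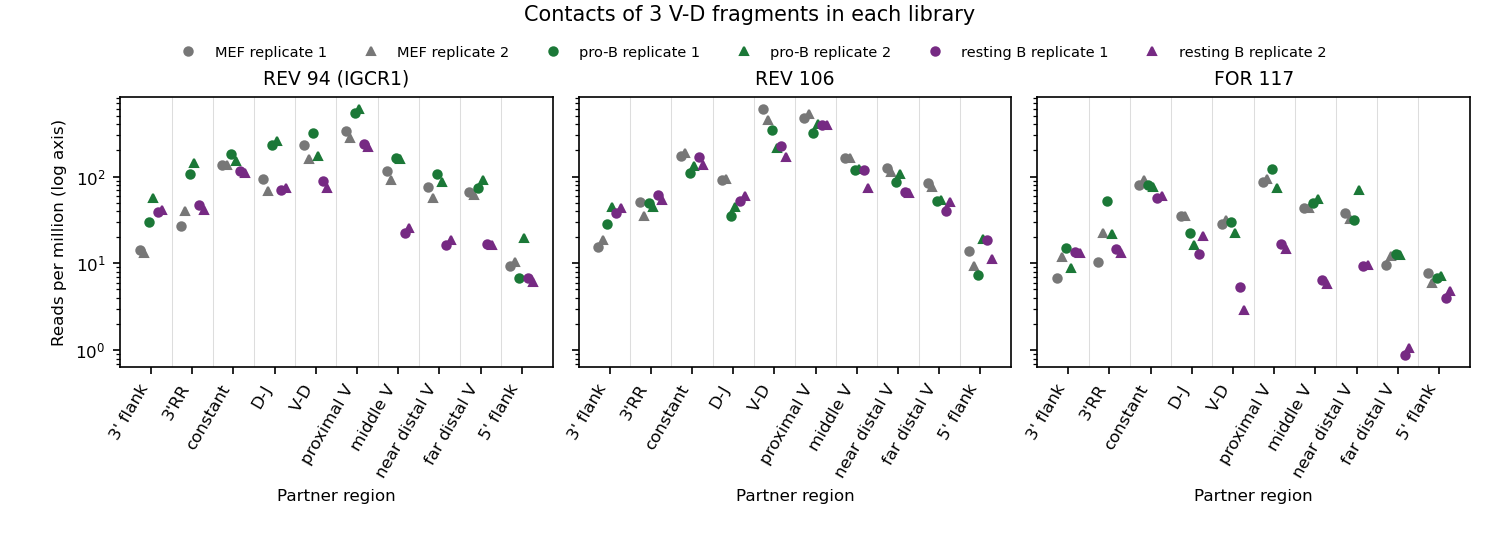
CPM (log axis) of REV 94, REV 106 and FOR 117 with each partner region in each of the 6 libraries; colour gives the cell type and the marker the replicate. For REV 94 the resting B points lie below the others from the middle V to the far distal V region (16.3 to 25.7) but within or near them on the constant side; the resting B points of REV 106 lie much nearer to the others, and those of FOR 117 lie below the others from the V-D to the 5′ flank column.

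FOR 117, the V-D fragment nearest the V segments, had fewer reads in resting B cells across all V regions. With the middle V region it had 43.1 and 43.6 CPM for MEF, 50.2 and 55 for pro-B, and 6.37 and 5.83 for resting B, folds of -2.83 ± 0.32 over MEF (adjusted p 0.00429) and -3.11 ± 0.33 over pro-B (adjusted p 0.0029). With the far distal V region it had 162 and 333 reads for MEF, 226 and 295 for pro-B, and 21 and 23 for resting B, folds of -3.47 ± 0.49 (adjusted p 0.0053) and -3.70 ± 0.50 (adjusted p 0.00391). MEF and pro-B libraries were close in both, and resting B cells lay well below. The proximal V region (-2.53 and -2.65), the near distal V region (-1.89 and -2.41) and the other V-D fragments (-2.85 and -2.68) fell in both comparisons too, with adjusted p values of 0.00351 to 0.0206. With 1 library left out, the highest adjusted p among the 10 falls of FOR 117 was 0.141.

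On the constant side no sum of FOR 117 was called. With the constant region it had 80.7 and 91.6 CPM for MEF, 79.5 and 75.1 for pro-B, and 57.2 and 60.4 for resting B (-0.55 ± 0.25 over MEF, adjusted p 0.124), and with the 3′ flank 6.78 and 11.8, 14.8 and 8.92, and 13.4 and 13.3 CPM. With the D-J region it had 35.3 and 35.5 CPM for MEF, 22.5 and 16.2 for pro-B, and 12.8 and 20.6 for resting B, so that both resting B libraries lay below both MEF libraries (-1.08 ± 0.39, adjusted p 0.0733). All 6 tested D-J pairs of FOR 117 had a fold below 0 over MEF, with a median of -2.56. Its share of reads with the constant region was 23.3% and 24.0% for MEF, 18.8% and 20.7% for pro-B, and 40.7% and 41.3% for resting B. FOR 117 was also the fragment with the fewest reads. Of its 113 pairs, 1 and 2 had 0 reads for MEF, 5 and 26 for pro-B, and 22 and 26 for resting B.

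Both V-D pairs called in resting B over MEF held FOR 117. FOR 117 with REV 125 (positions 114809751 to 114823609, the first fragment of the proximal V region, 23.8 kb away) had 426 and 604 reads for MEF, 714 and 462 for pro-B, and 39 and 31 for resting B (-3.93 ± 0.59 over MEF, adjusted p 0.044). FOR 117 with REV 94 (70.3 kb) had 207 and 279, 311 and 310, and 8 and 2 reads (-5.65 ± 0.87 over MEF, adjusted p 0.0467, and -6.12 ± 0.88 over pro-B, adjusted p 0.0214). Neither was called over MEF with any MEF or resting B library left out. Over pro-B, falls reached partners much farther away. FOR 117 with REV 187 (275 kb, proximal V) had 133 and 302, 271 and 409, and 14 and 7 reads (-5.15 ± 0.75, adjusted p 0.0214), and FOR 117 with REV 545 (1555 kb, near distal V) had 268 and 246, 249 and 916, and 14 and 21 reads (-5.08 ± 0.81, adjusted p 0.0245). The pair of FOR 117 with the intronic enhancer fragment, FOR 117 with REV 81, had 142 and 163, 114 and 114, and 143 and 169 reads and was not called.

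**Figure D4:**
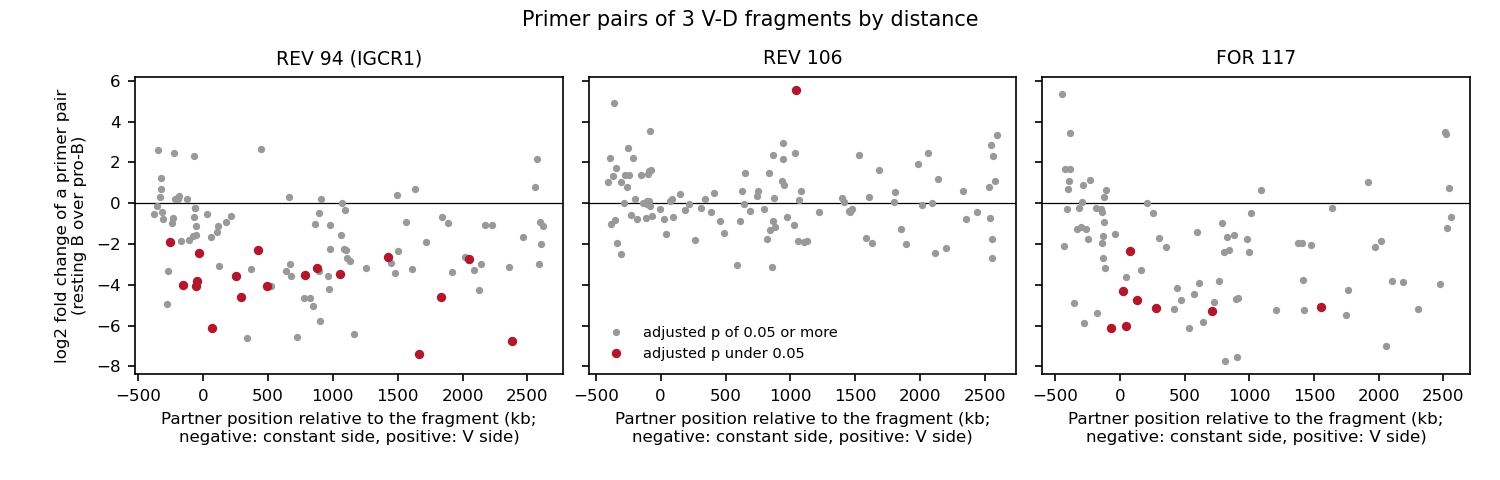
Log2 fold in resting B over pro-B of every tested primer pair of REV 94, REV 106 and FOR 117, against the position of the partner relative to the fragment in kb (negative: constant side; positive: V side); red points have an adjusted p under 0.05. Points of REV 94 and FOR 117 on the V side lie mostly below 0 (medians -2.79 and -3.71), while those of REV 106 scatter around 0 (median -0.05).

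REV 106 lies 30.9 kb from REV 94 and has a reverse primer as well, so both can pair with the same forward fragments. With the middle V region it had 164 and 166 CPM for MEF, 121 and 123 for pro-B, and 118 and 74.1 for resting B (a fold of -0.34 ± 0.29 over pro-B, adjusted p 0.384). With the D-J region it had 90.4 and 94.3 CPM for MEF, 35.2 and 45 for pro-B, and 52.8 and 60.2 for resting B. There its pro-B libraries were the lowest and those of REV 94 the highest, although the fold of REV 106 in pro-B over MEF was not called (-1.20 ± 0.27, adjusted p 0.0956). With the proximal V region it had 470 and 521, 316 and 408, and 397 and 392 CPM. It fell over MEF with the near distal V region (-0.87 ± 0.25, adjusted p 0.0377) and with the other V-D fragments (-1.42 ± 0.36, adjusted p 0.0255), and no region was called in resting B over pro-B. The called pair of REV 106 was FOR 404 with REV 106, with 18 and 32 reads for MEF, 1 and 1 for pro-B, and 60 and 55 for resting B (a fold of 5.53 ± 1.26 over pro-B, adjusted p 0.0455).

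FOR 103 had contacts with the far end of the locus that were highest in resting B cells. With the 5′ flank it had 35.3 and 30.8 CPM for MEF, 7.82 and 19.1 for pro-B, and 68.9 and 76.5 for resting B, 3 separate ranges. It rose by 2.43 ± 0.47 in resting B over pro-B (adjusted p 0.00923, up to 0.0786 with 1 library left out). Much of this was FOR 103 with REV 831 (positions 117305833 to 117307899, 2558 kb away), with 250 and 136 reads for MEF, 14 and 18 for pro-B, and 929 and 1023 for resting B (a fold of 5.78 ± 0.75 over pro-B, adjusted p 0.0203). FOR 103 with REV 840, 2574 kb apart, followed the same order with 45 and 66, 15 and 9, and 243 and 262 reads (4.17 ± 0.88, adjusted p 0.0376). FOR 103 with REV 834 had 35 and 24, 0 and 0, and 82 and 74 reads. Against a floor of 3 reads per pro-B library it was at least 23.0-fold higher in resting B than in pro-B cells and at least 9.78-fold higher in MEF.

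On the constant side FOR 103 had 213 and 266 CPM for MEF, 109 and 91 for pro-B, and 231 and 232 for resting B with the constant region, and rose in resting B over pro-B (1.21 ± 0.27, adjusted p 0.0148, up to 0.108 with 1 library left out). Its sum with the D-J region fell in resting B over MEF by 1.81 and over pro-B by 1.54. Without FOR 103 with REV 85 the former became -0.12 (adjusted p 0.735) and the latter a rise of 1.30 (adjusted p 0.0097). The pair with the intronic enhancer fragment, FOR 103 with REV 81, had 992 and 1559 reads for MEF, 410 and 237 for pro-B, and 1301 and 1689 for resting B, the pro-B libraries being lowest without a call (-1.78 ± 0.51 over MEF, adjusted p 0.411). Beside the lower pro-B values of FOR 103, its reads with the chromosome 5 gene desert, a control for recovery of the fragment, were lower in pro-B cells as well. They were 887 and 1276 CPM of the desert contacts for MEF, 618 and 276 for pro-B, and 1009 and 1147 for resting B (1.31 ± 0.45 in resting B over pro-B, adjusted p 0.0711). Their part in the result was not tested.

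FOR 115 carried the largest number of V-D reads. With the 3′ flank it went from 35.0 and 51.3 CPM for MEF to 125 and 133 for resting B, with 105 and 108 for pro-B, the rise over MEF given above. Its sum with the constant region rose in resting B over pro-B by 1.69 ± 0.43 (adjusted p 0.0231) and by 0.64 (adjusted p 0.222) without REV 70. FOR 115 with REV 37 (280 kb, constant region) had 529 and 757 reads for MEF, 363 and 296 for pro-B, and 2066 and 1419 for resting B, and was the 1 pair of FOR 115 called higher (2.19 ± 0.45 over pro-B, adjusted p 0.0357). With the far end of the 3′ flank, FOR 115 with REV 4 (424 kb) had 59 and 128 reads for MEF, 756 and 817 for pro-B, and 498 and 353 for resting B. It had the lowest p of the V-D pairs that were higher in pro-B over MEF (3.26 ± 0.50, adjusted p 0.235). With the 3′ end of the 3′RR, FOR 115 with REV 22 had 237 and 608, 1097 and 1290, and 631 and 417 reads, again higher in both pro-B libraries without a call (1.70 ± 0.45 over MEF, adjusted p 0.401). Its other pair there, FOR 115 with REV 24, had 189 and 120, 192 and 241, and 72 and 47 reads and overlapped between MEF and pro-B on the CPM scale (0.46 ± 0.72). The pairs FOR 103 with REV 22 (-0.22 ± 1.59) and FOR 103 with REV 24 (-0.41 ± 1.13) overlapped as well, while FOR 117 with REV 22 was higher in both pro-B libraries without a call (2.00 ± 1.09, adjusted p 0.601).

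All 6 pairs that join 2 V-D fragments had lower reads in both resting B libraries than in both MEF libraries, where 36% of all Igh pairs did. FOR 103 with REV 106 (4.76 kb) had 7679 and 8298 reads for MEF, 3508 and 2880 for pro-B, and 3583 and 2366 for resting B. FOR 115 with REV 94 (60 kb) had 3080 and 3403, 4999 and 3147, and 1791 and 1279 reads. The sum over the 6 was 823 and 613 CPM for MEF, 666 and 382 for pro-B, and 314 and 240 for resting B, and fell in resting B over MEF by 1.37 ± 0.36 (adjusted p 0.0127, up to 0.146 with 1 library left out). Of the 6 pairs, FOR 117 with REV 94 was the one called.

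The balance between the sides was measured for each fragment as the side ratio, log2 of its reads with V-side partners over its reads with constant-side partners. This ratio cancels the fragment's own copy number and recovery where they act on all its contacts alike. The test was limma over 192 Igh fragments. REV 94 had side ratios of 1.16 and 0.95 for MEF, 0.69 and 0.64 for pro-B, and 0.14 and 0.11 for resting B, 3 ranges that did not overlap. The ratio fell in resting B over MEF by 0.92 ± 0.17 (adjusted p 0.0164). With 1 library left out it stayed between -1.03 and -0.82, but it was not called without MEF replicate 1 or either resting B library (adjusted p 0.110, 0.107 and 0.116). It missed the threshold in resting B over pro-B (-0.54 ± 0.17, adjusted p 0.0644) and in pro-B over MEF (-0.39 ± 0.17, adjusted p 0.312). For resting B over pro-B it was -1.63 with each primer pair counted once and -1.60 with partners over 200 kb away only, and both were called (adjusted p 0.0016 and 0.0156).

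FOR 117 had side ratios of 0.47 and 0.22 for MEF, 0.40 and 0.84 for pro-B, and -1.39 and -1.59 for resting B, and fell in both comparisons (-1.83 and -2.10, adjusted p 0.00662 and 0.00874). FOR 115 fell in both as well (-1.17 and -2.04, adjusted p 0.0243 and 0.0104), but the values rest in part on its pair with REV 70. Without that pair its side ratios were 0.95 and 0.70 for MEF, 0.65 and 1.46 for pro-B, and -0.06 and -0.07 for resting B. The folds became -0.90 over MEF, no longer called (adjusted p 0.0737), and -1.12 over pro-B (adjusted p 0.0435). REV 106 had 1.38 and 1.39, 1.38 and 1.42, and 1.00 and 1.01, with no call. FOR 103 had folds of 0.98 and 1.19, not called, whose sign came from its pair with REV 85. Without that pair they were -0.23 and -0.50 (adjusted p 0.557 and 0.238), and its side ratios were 0.13 and -0.11 for MEF, -0.11 and 0.66 for pro-B, and -0.22 and -0.22 for resting B, which were then the lowest. Calls were common over all fragments, with 30.7% lower and 3.65% higher in resting B over MEF, 27.1% and 8.85% in resting B over pro-B, and 7.81% and 0.521% in pro-B over MEF. The 3 of 5 V-D fragments with a lower ratio over MEF and the 2 of 5 over pro-B are to be read against those shares.

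**Figure D5:**
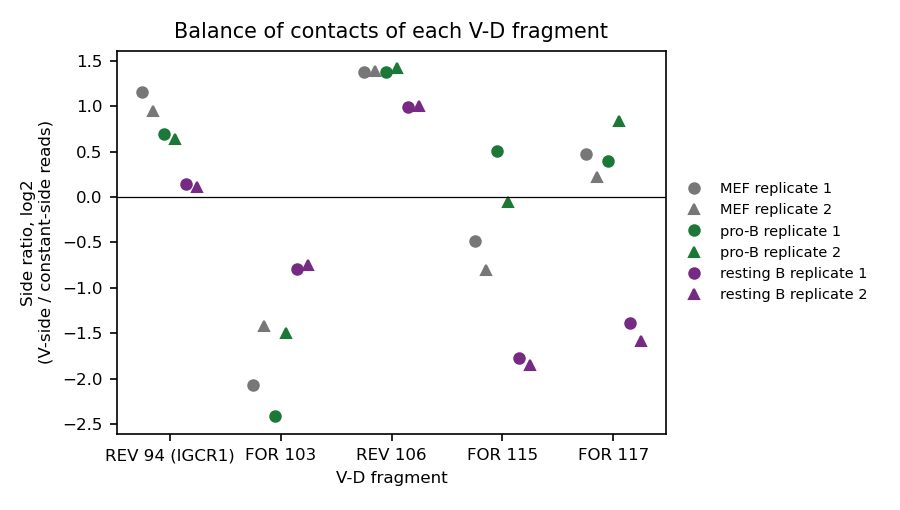
Side ratio (log2 of V-side over constant-side reads) of each V-D fragment in each of the 6 libraries; points above the line have more reads with the V side. The resting B points are the lowest for REV 94, REV 106, FOR 115 and FOR 117 and the highest for FOR 103, where they become the lowest, at -0.22 and -0.22, without the pair FOR 103 with REV 85.

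The difference between IGCR1 and the other 4 fragments was tested directly, within each library. For the side ratio it was not called in any comparison, against backgrounds of 5.21%, 14.6% and 22.4% of the fragments for pro-B over MEF, resting B over MEF and resting B over pro-B. The change of REV 94 minus the mean of the other 4 was -0.62 ± 0.19 (adjusted p 0.135), -0.32 ± 0.19 (adjusted p 0.303) and 0.30 ± 0.19 (adjusted p 0.277) in that order. The last value has no settled direction, being -0.25 with each pair counted once, -0.65 over 200 kb and 0.72 (adjusted p 0.0325) without FOR 103 with REV 85.

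The level of REV 94 with each region minus the mean log2 level of the other 4 was tested as well, a comparison added after the levels had been seen. A level depends on the strength of the primers, so what is read is its change between cell types. In pro-B over MEF the difference was above 0 for all 10 regions, from 0.51 to 2.44, and highest for D-J (2.44 ± 0.27, adjusted p 0.0751). With limma 0 of 10 were called, where the background was 0% in either direction, and 7 of the 10 were under 0.05 before adjustment. The same count was 6 for FOR 103, 3 for REV 106, 1 for FOR 115 and 0 for FOR 117. In resting B over MEF 0 of 10 were called (background 0.938% higher and 2.54% lower), and 4 were under 0.05 before adjustment. FOR 115 and FOR 117 had 6 each, FOR 103 had 4 and REV 106 had 1. For the unadjusted counts of both comparisons the share over all Igh fragment by region differences is not given. They therefore do not show whether REV 94 stands apart. In resting B over pro-B all 10 were below 0 and 6 were called lower, against backgrounds of 10.4% higher and 11.2% lower. These were the 5′ flank (-1.50), constant region (-1.29), D-J (-1.68), middle V (-1.87), near distal V (-1.62) and far distal V (-0.88), with adjusted p values of 0.0141 to 0.0447. For the 5′ flank and the constant region the sums of REV 94 itself were not called. The mean subtracted there holds sums of FOR 103 and FOR 115 that rose, in part through single pairs. Against REV 106 alone these 2 differences were not called (-1.14 ± 0.35, adjusted p 0.0664, and -0.89 ± 0.28, adjusted p 0.0717). None of the 6 was called without either resting B library, and 2 were called without either MEF library. FOR 117 also fell relative to its neighbours in resting B over pro-B, in 6 of 10 regions. These comparisons share the same libraries and the same 5 fragments, so by arithmetic a lower value of 1 fragment raises the others.

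Against REV 106 alone the gap of REV 94 in the D-J region was 0.04 and -0.45 for MEF, 2.72 and 2.53 for pro-B, and 0.40 and 0.30 for resting B on the log2 scale. The pro-B libraries stood apart from the other 4. The rise over MEF was 2.83 ± 0.27 (adjusted p 0.0418) and the change from pro-B to resting B -2.28 ± 0.27 (adjusted p 0.00875). Backgrounds were 0.0893% higher in pro-B over MEF, 3.08% lower in resting B over MEF and 11.2% lower in resting B over pro-B. With the 3′RR the gap was -0.91 and 0.18 for MEF, 1.11 and 1.69 for pro-B, and -0.36 and -0.40 for resting B. It was called for resting B over pro-B (-1.78 ± 0.42, adjusted p 0.0381) and not for pro-B over MEF (1.76 ± 0.42, adjusted p 0.173). With the middle V region the gap was -0.51 and -0.84 for MEF, 0.44 and 0.38 for pro-B, and -2.40 and -1.52 for resting B, so that resting B cells were lowest (-2.37 ± 0.36 over pro-B, adjusted p 0.0128). In all, 7 of the 10 regions were called lower in resting B over pro-B.

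Contacts with the gene desert on chromosome 5, which no folding of Igh should shape, gave no call for any of the 5 fragments. REV 94 had 93 and 152 desert reads for MEF, 51 and 815 for pro-B, and 213 and 285 for resting B. As CPM of the desert contacts these were 295 and 414, 375 and 773, and 292 and 325, so both pro-B libraries lay above both resting B libraries and overlapped with MEF. Its folds were 0.72 ± 0.47 in pro-B over MEF, -0.20 ± 0.47 in resting B over MEF and -0.92 ± 0.47 in resting B over pro-B (adjusted p 0.474, 0.934 and 0.18), which have the signs of most of its Igh folds in the same comparisons. FOR 117 had 32 and 78, 5 and 142, and 41 and 63 desert reads, and as CPM both resting B libraries (56.2 and 71.9) lay below both MEF libraries (-1.29 ± 0.79 in resting B over MEF, adjusted p 0.776). The backgrounds were 0% in pro-B over MEF, 0.446% in resting B over MEF and 8.93% in resting B over pro-B. With counts this low a difference in recovery of about the size of these SEs was not detectable, and its part in the Igh folds was not tested.

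Loops were taken as pairs over 50 kb apart whose reads exceeded a model of separation and primer strength, with both libraries of a cell type at a standardised residual of 2 or more. Of 547 V-D pairs that far apart, 2 passed for MEF, 1 for pro-B and 3 for resting B (0.366%, 0.183% and 0.548%, against 0.208%, 0.374% and 0.914% of all Igh pairs). FOR 103 with REV 85 passed in all 3 cell types and FOR 115 with REV 70 in MEF and resting B cells. FOR 103 with REV 831 passed in resting B cells, with residuals of 2.26 and 2.11 there and 0.17 and 0.14 for MEF, and the difference between cell types was not tested on this scale. For pro-B, FOR 115 with REV 70 had residuals of 0.48 and 8.18, so replicate 1 alone kept it from the list. No pair of REV 94 passed in any cell type.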

How the data were processed

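The deposited files hold raw counts of read pairs per primer pair, 1 file per library, made by the authors; per the file headers they carry no correction for distance, depth or primer strength. The submitters' processing notes name Novoalign, without a version, and mm9. Pairs not listed were set to 0. The members, regions and lists were chosen with earlier results of these data known. Igh pairs reaching 10 reads in 2 or more libraries went into edgeR 4.0.16 (R 4.3.3), fitted on the 6 libraries by cell type alone with TMM scaling, whose factors ranged from 0.728 to 1.22. Sums over regions used the same scaling. Side ratios, with 0.5 added to each sum and partners in the fragment's own region left out, and differences between fragments were tested with limma 3.58.1. The SE of an edgeR fold is the fold divided by the square root of F. DESeq2 1.42.0, other scalings, filters, a distance trend, a replicate block and leaving out each library were alternatives. Simulated data were used to check the tests of primer pairs, fragment by region sums, side ratios and side ratio differences. The other tests were not checked in this way. The pairs named are up to 5 per direction and comparison in order of p among called pairs whose libraries do not overlap (up to 3 where none was called), pairs with the intronic enhancer or the 3′ end of the 3′RR, and pairs of 2 V-D fragments; others were chosen after their values were seen. No sequence is printed, since no mm9 genome was used here.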

Additional observations from a re-analysis of the deposited data

How the results depend on the processing

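With 2 libraries per group, the adjusted p-values moved with the libraries and the scaling more than the folds did. Values below are in the order pro-B over MEF, resting B over MEF, resting B over pro-B where 3 are given. Of 113 called single pairs, sums, ratios and differences, which leave out the IGCR1 side ratio, 112 and 113 kept their call and direction without pro-B replicate 1 and 2, 33 and 45 without MEF replicate 1 and 2, and 5 and 1 without resting B replicate 1 and 2. None of these reversed. With 1 library left out, called pairs ranged over 0 to 150, 0 to 127 and 0 to 248, region sums over 0 to 4, 0 to 10 and 1 to 8, fragment by region sums over 0 to 14, 0 to 29 and 0 to 25, gene desert calls over 0 to 1, 0 and 0 to 2, and IGCR1 by region differences over 0 to 3, 0 to 4 and 0 to 7. The IGCR1 side ratio ranged over -0.49 to -0.28, -1.03 to -0.82 and -0.56 to -0.51, and its difference from the other 4 fragments over -0.75 to -0.49, -0.44 to -0.20 and 0.17 to 0.43.

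For the counts of calls here and in the paragraph above, the share over all Igh features in the same setting is not given. They therefore do not show whether V-D features exceeded the background. The V-D pairs called, 0, 2 and 32, became 6, 61 and 116 with DESeq2. The 2 over MEF became 4 with total cis reads as library size, 5 with no filter, 5 with at least 50 reads, 121 with only the 4 libraries compared and 7 with the distance trend removed. The 32 over pro-B became 18 with total cis reads, 20 with gene desert reads, 0 with 4 libraries and 52 with the distance trend removed. The 0, 4 and 3 region sums became 2, 7 and 6 with each pair counted once, were 0 and 1 with total cis reads and 0 and 0 with gene desert reads in the comparisons with resting B, and 10 over MEF with 4 libraries. The 2, 16 and 17 fragment by region sums became 0, 0 and 0 in pro-B over MEF with total cis reads, gene desert reads and 4 libraries and 0 with each pair counted once, 10, 3 and 28 in resting B over MEF with those first 3 settings, and 6 over pro-B with gene desert reads. The IGCR1 by region differences, 0, 0 and 6, became 1 in pro-B over MEF against REV 106 alone, and 4 and 2 in the comparisons with resting B with 4 libraries. With total reads between chromosomes as library size, 1 fragment was called with the gene desert in pro-B over MEF.

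The IGCR1 side ratio in resting B over pro-B, -0.54, became -1.63 with each pair counted once and -1.60 over 200 kb, both called. Its difference from the other 4, 0.30, became -0.25 and -0.65 in these settings and 0.72, called, without FOR 103 with REV 85. Counting each pair once and leaving out FOR 103 with REV 85 turned 3 falls in resting B over pro-B: V-D with D-J to 0.19 and 0.055, FOR 103 with D-J to 0.32 and 1.30, and FOR 103 with D-J against the other fragments to 0.14 and 1.45. The side ratio of FOR 115 against the others turned to 0.022 over 200 kb. Apart from the 2 pairs that were left out by construction, the cause was not tested.

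The replicate numbers do not pair the libraries: the correlations of replicate 1 minus replicate 2 were -0.02 between pro-B and MEF, 0.05 between pro-B and resting B, and -0.01 between MEF and resting B. With the replicate block, called V-D pairs were 0 over MEF and 9 over pro-B, fragment by region sums 0 in pro-B over MEF, and 74 of the 113 kept their call. Leaving out either large pair, the test against REV 106 alone and the fragment by region differences were chosen after seeing the data. Depth limits pairs under about 10 reads, and copies of the region lost by recombination cannot be told apart from fewer contacts per copy.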
